A study of Homo sapiens with 9 samples.

Results

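mRNA labelled during a short pulse of 4-thiouridine (4sU) was compared with unlabelled mRNA by SLAM-Seq in MCF10A, a human breast epithelial line that is not transformed. The comparison covered the 8807 genes with a mean of at least 5 reads per 1000000 (CPM) in the libraries without 4sU, of 25801 genes in the whole table. In all cells JUN had been knocked out and replaced by a JUN-AID fusion protein, introduced together with the plant F-box protein TIR1, and all cells were grown with EGF, insulin, hydrocortisone and cholera toxin. The group with 4sU was kept in the solvent DMSO for 1 h before 4sU was added at 100 µM for a pulse of 1 h, with 3 replicates. The control group received no 4sU, also with 3 replicates, and its labels name no solvent. The knockout was made in lines grown from single cells, so a result may hold for 1 clone. The study calls the replicates biological, and the labels do not say whether they were separate cultures, so the p-values measure only the spread between these libraries. The third group of the experiment, in which the auxin IAA was given for JUN degradation, is not part of the comparison.

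4sU enters RNA in place of uridine while the RNA is being made. Alkylation with iodoacetamide then causes the base to be read as C, so that the T>C conversion rate of a transcript rises with the share of its molecules made during the pulse. At steady state this share is large for mRNAs that are rapidly replaced, as is known for immediate early genes and cytokines, and small for mRNAs of housekeeping enzymes and ribosomal proteins. Short half-lives are often linked to AU-rich elements in the 3′ UTR, to which ZFP36 and related proteins bind to recruit the decay machinery. Each gene and library had both a rate and a level. The conversion rate is given in percent of T positions, and the rate with 4sU minus the rate without 4sU is called the background-subtracted rate. The number of reads on the 3′ end in CPM gives total mRNA, labelled and unlabelled, and is a share of the library, so a lower value cannot be told apart from a rise of other mRNAs, nor less RNA per cell from fewer cells.

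AU-rich sites of 5 fast-labelled genes show the nonamer that was searched in the 3′ UTRs. Each is given 5′ to 3′ on the strand of the gene, from the GENCODE annotation and sequence of GRCh37, with the nonamer or run of overlapping nonamers in capitals. For CXCL2 the first of 2 sites is printed, and the second, a single nonamer further downstream, is left out.
CXCL2, a neutrophil-attracting chemokine, chr4:74963301-74963329, minus strand: ctatTTATTTATTTATTTATTTATTtgtt
DUSP1, a MAP kinase phosphatase, chr5:172195648-172195672, minus strand: gctggtccTTATTTATTtaacttca
DUSP1, further downstream, chr5:172195380-172195404, minus strand: aatataccTTATTTATTtttgtgta
FOS, an AP-1 subunit, chr14:75748765-75748789, plus strand: tttttaatTTATTTATTaagatgga
PLK2, a polo-like kinase, chr5:57749895-57749919, minus strand: taaactttTTATTTATTacagccca
TNFAIP3, a ubiquitin-editing inhibitor of NF-kappaB, chr6:138203437-138203461, plus strand: aattcactTTATTTATTttattaca

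The 6 libraries held between 18997637 and 24014195 reads. Basal epithelial keratins were abundant, with KRT6A between 1202 and 2293 CPM and KRT5 between 519 and 709 CPM. KRT14, also a basal keratin, reached only 10.6 CPM. Among luminal markers, PGR was at 0 and ESR1 reached 0.47 CPM. The luminal keratins were present, KRT18 between 64.4 and 99.7 CPM and KRT8 between 17.9 and 64.7 CPM. GATA3 lay between 16.25 and 29.4 CPM and AREG between 5.04 and 19.7 CPM. Of 6 fibroblast markers, COL1A2 was at 0 in every library and COL3A1, LUM and PDGFRA reached at most 0.223 CPM, but DCN lay between 7.19 and 14.2 CPM and COL1A1 between 3.21 and 6.01 CPM. Among immune markers, PTPRC and CD3E were at 0 and CD68 lay between 1.68 and 7.27 CPM. Of 3 endothelial markers, CDH5 and VWF were at 0 and PECAM1 reached 1.08 CPM.

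Without 4sU, the middle gene of the 8807 had a conversion rate of 0.0570% in replicate 1, 0.0565% in replicate 2 and 0.0591% in replicate 3. With 4sU it was 0.254, 0.190 and 0.190%. The groups did not overlap, and replicate 1 with 4sU lay above the other labelled libraries, as the plot of conversion rates by library shows. The means of the library medians were 0.0575% ± 0.00139 (SD, n = 3) and 0.211% ± 0.0369 (SD, n = 3), with p = 0.1 in a two-sided exact permutation test, the smallest p this permutation test can give with 3 libraries in each group. The rate was higher with 4sU for 5578 genes, or 63.3% of those tested, and lower for 4 genes, or 0.0454% (limma, Benjamini-Hochberg adjusted p under 0.05). Without replicate 1 the total of both directions was 3479, against 5582 with all libraries. The 3 libraries with 4sU all lay above the 3 without for 5977 genes, or 67.9%.

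**Figure D1:**
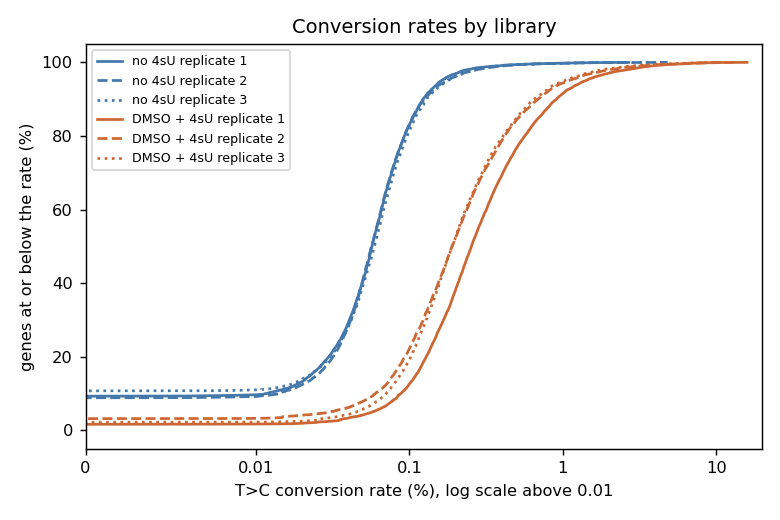
Cumulative share of the genes (percent, y axis) at or below a T>C conversion rate (percent, x axis, linear up to 0.01 and logarithmic above), 1 line per library, in blue without 4sU and in orange with DMSO and 4sU. The 3 blue lines lie close together with medians from 0.0565 to 0.0591%, and the orange lines are shifted to higher rates, with replicate 1 (solid) farthest to the right at a median of 0.254%.

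The 4 genes with a lower rate, named after their values were seen, were DFFB, MED19, TANGO2 and TNFSF13. MED19, a subunit of the Mediator complex, had a rate of 0.97, 2.12 and 0.799% without 4sU and 0.658, 0.375 and 0.313% with it. Its rates without 4sU were thus far above the median gene in all 3 libraries. Such a high rate in unlabelled cells, over 0.5% on average, was seen for 52 genes. COMMD6 is another example among abundant genes, at 1.38, 1.04 and 1.02% without 4sU and 1.13, 0.965 and 1.02% with it. The background-subtracted rate of these genes is the difference of 2 high values.

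The background-subtracted rate varied widely among genes. Its median was 0.154% (SD of the 3 replicate values 0.0362), and the 10th and 90th percentiles were 0.0381 and 0.622%, a 16.3-fold difference. It exceeded 1% for 428 genes and 5% for 39 genes, whereas 257 genes had a value of 0 or below. Genes were ordered by this value in deciles, the highest of which held 881 genes from 0.622 to 12.4%. The last gene below this decile was at 0.621%. The lowest decile held 880 genes up to 0.0380%. Between replicates, Spearman's correlation of the rate across genes was 0.54, 0.58 and 0.54, and among the 4952 genes with at least 20 CPM it was 0.63, 0.66 and 0.65. These correlations across genes are descriptions, because genes are not independent replicates.

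The lists with the fastest labelling held signalling and transcription regulators. Of 50 function lists, the highest median rates were those of immediate early genes, feedback inhibitors of TGF-beta and BMP signalling, Krueppel-like factors, MAP kinase phosphatases, chemokines, AP-1 factors and ZNF zinc finger genes, as the plot of the lists shows. The lowest medians were those of the chaperonin CCT, the tricarboxylic acid cycle, polyamine synthesis, antioxidant enzymes, glycolysis and the respiratory chain. Some of these medians depended on scarce members. Among genes with at least 20 CPM, the median was 0.453% for TGF-beta and BMP feedback instead of 1.84%, 0.342% for ZNF genes instead of 0.654%, and 1.64% for AP-1 factors instead of 0.758%. Lists are described by counts and medians beside those of all genes, without a test of the list. By definition about 10% of all genes were in the highest decile.

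Immediate early genes, which growth factors and stress induce without new protein synthesis, had a median rate of 3.93%, and 16 of 17 were in the highest decile. EGR1, a zinc finger transcription factor, had a rate of 0.0752, 0.0497 and 0.0515% without 4sU and 9.03, 7.94 and 6.66% with it. FOS had 0.158, 0.0487 and 0.019% without 4sU and 9.39, 7.44 and 5.13% with it, and ZFP36, the AU-rich element binding protein that promotes mRNA decay, 0.108, 0.0724 and 0.0836% without 4sU and 9.43, 8.69 and 10.0% with it. In all of these the lowest labelled library was far above the highest unlabelled library. SRF, the transcription factor that activates many of these genes, was the exception in the list at a background-subtracted rate of 0.101%. MYC, a transcription factor of growth control, had a rate of 0.0451, 0.0466 and 0.0437% without 4sU and 5.63, 5.97 and 4.3% with it, and its partner MAX a background-subtracted rate of only 0.0363%, which did not pass the test (adjusted p = 0.092).

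AP-1 factors had a median of 0.758%, with 8 of 12 genes in the highest decile. JUNB, like JUN a subunit of AP-1, had a background-subtracted rate of 4.12%. For JUN, whose own gene was knocked out in these cells, reads were counted on a 3′ interval of 1287 bases. Whether the introduced JUN-AID copy carries this sequence is not stated, so it is not known if the copy adds to these reads. The rate of JUN was 0.0368, 0.0343 and 0.0529% without 4sU and 3.08, 2.03 and 2.37% with it. ATF2 and ATF7 had the lowest rates in the list at 0.174% and 0.234%, nearer to the median of all genes.

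MAP kinase phosphatases and inhibitors of ERK signalling, which switch off the signal that EGF starts, had a median of 1.23%, with 11 of 16 genes in the highest decile. DUSP1, which dephosphorylates MAP kinases in the nucleus, had a rate of 0.036, 0.0368 and 0.04% without 4sU and 9.32, 10.0 and 9.35% with it. This was the highest background-subtracted rate among genes with at least 20 CPM, at 9.53% (standard error 0.235). DUSP2, another nuclear phosphatase, was at 9.47%, and DUSP6, which acts on ERK in the cytoplasm, at 2.94%. The ETS factors ETV4 and ETV5, which ERK signalling induces, had the lowest rates in the list at 0.0767% and 0.282%.

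The TGF-beta and BMP feedback genes had a median of 1.84%, with 7 of 11 in the highest decile. SMAD7, which blocks the TGF-beta receptor, was at 7.8%, and ID1, an inhibitor of basic helix-loop-helix factors induced by BMP, at 5.45%. The lowest in the list were SKI, a repressor of SMAD proteins, at 0.295% and the ubiquitin ligase SMURF2 at 0.369%. Of the Krueppel-like zinc finger factors, 7 of 10 were in the highest decile, with a median of 1.47%. KLF6 was at 5.89% and KLF10 at 3.05%, whereas KLF8 was at -0.0454% and was not labelled past the test (adjusted p = 0.54).

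Chemokines and interleukins, the signals of inflammation, had a median of 0.828%, with 7 of 12 in the highest decile. CXCL2 had a rate of 0.072, 0.0791 and 0.0453% without 4sU and 7.68, 7.3 and 7.29% with it, with labelled libraries that differed little from each other. IL6 was at 4.2% with a wide spread between labelled libraries (7.28, 1.91 and 3.65%). IL18, by contrast, was at 0.138%, below the median of all genes. The NF-kappaB list had a median of 0.237% and 3 of 13 genes in the highest decile, which were NFKBIA, TNFAIP3 and NFKBIZ. NFKBIA, which holds NF-kappaB in the cytoplasm, had 0.0863, 0.0953 and 0.0809% without 4sU and 6.9, 6.54 and 6.93% with it, TNFAIP3 was at 4.22%, and NFKBIZ, a nuclear regulator of NF-kappaB, at 3.88%. The lowest rates in the list were also those of inhibitors, NFKBIB at 0.0878% (adjusted p = 0.56 by limma) and TNIP2 at 0.115%. The EGF receptor ligands, of which 2 of 5 were in the highest decile, ranged from 0.229% for TGFA to 5.86% for AREG.

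Targets of YAP and TAZ, the transcriptional coactivators of the Hippo pathway, had a median of 0.534%, with 8 of 18 in the highest decile. The kinase NUAK2 was at 10.1%, from only 42, 29 and 32 reads with 4sU. AXL, a receptor tyrosine kinase, was at 0.0604%. For p53 target genes the median was 0.583% and 10 of 24 were in the highest decile. PLK2 had 0.159, 0.0431 and 0.0578% without 4sU and 4.42, 5.83 and 3.3% with it, and the antiproliferative factor BTG2 a background-subtracted rate of 3.67%, whereas the repair factor DDB2 was at 0.0426%. Among Notch pathway genes (2 of 7 in the highest decile), the repressor HES1 was at 4.88% and the receptor NOTCH2 at 0.156%. Among circadian clock genes (3 of 7), the repressor BHLHE40 was at 3.48% and CLOCK at 0.144%. In the BCL2 family 3 of 14, among G1 cyclins and inhibitors 2 of 13 and in the MYC and MAX network 3 of 7 genes were in the highest decile.

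ZNF zinc finger genes, mostly sequence-specific repressors, formed the largest of the lists with a median over 0.5%. Their median was 0.654%, 74 of 143 were in the highest decile and 130 of 143 above the median of all genes. ZNF92 was at 8.39%, from only 34, 16 and 27 reads with 4sU. ZNF551 was at 8.18% and ZNF267 at 4.66%, whereas ZNF185 had -0.0249%. Their mRNAs were scarce, with a median of 9.60 CPM in the libraries without 4sU against 24.1 CPM over all genes. Small nucleolar RNA hosts, whose introns carry the small nucleolar RNAs, had a median of 0.476%, and 8 of 18 were in the highest decile. SNHG12 was at 4.44% and SNHG3 at 4.33%, but SNHG29 at 0.0905%. Of all 134 long non-coding RNAs, 46 were in the highest decile (34.3%), with a median of 0.301% against 0.153% for 8606 protein-coding genes. All 6 transcripts whose symbols end in IT1, which name them as intronic to another gene, were in the highest decile. They ranged from KCNQ5-IT1 at 0.766% to RUNX1-IT1 at 8.16%, both named after their values were seen. In total reads 4 of the 6 fell, against 1.6% over all genes. Reads from the unspliced RNA of the host gene and from such a transcript cannot be told apart.

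In lists nearer to the middle, single regulators stood out. The stress response list had a median of 0.301% and 9 of 21 genes in the highest decile, led by DDIT4, an inhibitor of mTORC1, with 0.069, 0.068 and 0.0248% without 4sU and 8.64, 7.27 and 7.37% with it. The chaperones PDIA6 and HSP90B1 were the lowest in the same list at 0.0494% and 0.0298%. Chromatin-modifying enzymes had a median of 0.247% with 18 of 80 in the highest decile, among them the acetyltransferase EP300 at 2.57%. Among Mediator, TFIID and RNA polymerase II genes (median 0.165%, 9 of 74) MED26 was at 5.53%, and among SR factors and CLK kinases (0.155%, 2 of 17) the splicing kinase CLK1 was at 2.95%. Factors of AU-rich element binding and mRNA decay had a median of 0.213% with 5 of 28 in the highest decile. Of these, ZFP36L1 was at 2.94%, while ELAVL1, which stabilises AU-rich mRNAs, was at 0.0411% and HNRNPD at 0.0596%. Ubiquitin-specific proteases had 0.203% (2 of 33) and heat shock proteins 0.151% (2 of 18).

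The lists with the slowest labelling held enzymes and large protein complexes. All 8 chaperonin CCT subunits, which fold actin and tubulin, lay between 0.0431 and 0.0736%, and 0 of 8 were above the median of all genes. CCT2 had a rate of 0.0538, 0.0611 and 0.0558% without 4sU and 0.105, 0.107 and 0.0986% with it, so that labelled and unlabelled libraries still did not overlap. Glycolytic enzymes had a median of 0.0746% with 1 of 14 above the median of all genes, namely HK1 at 0.216%. LDHB had a rate of 0.0616, 0.039 and 0.0321% without 4sU and 0.0866, 0.0676 and 0.0557% with it, a difference that did not pass the test (adjusted p = 0.078). The tricarboxylic acid cycle (0.0649%, 19 genes) and the respiratory chain (0.0756%, 85 genes) had 1 gene each in the highest decile, DLST at 0.81% and the assembly factor UQCC4 at 0.665%. The respiratory chain subunits UQCRB, at 0.0454, 0.0483 and 0.0486% without 4sU and 0.0553, 0.0536 and 0.0827% with it, and COX6C, at 0.0742, 0.0481 and 0.0433% without 4sU and 0.0798, 0.0422 and 0.0635% with it, were among the 10 genes with the lowest rates of those with at least 200 CPM.

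Cytosolic ribosomal protein genes had a median of 0.0895%, and 14 of 69 were above the median of all genes. RPS14, with a rate of 0.0276, 0.0292 and 0.0304% without 4sU and 0.0672, 0.0362 and 0.0488% with it, was the lowest of them among genes with at least 200 CPM. Ribosomal protein genes and EEF1A1 have many processed pseudogenes, and how the authors' counting divides reads between copies is uncertain for them. Mitochondrial ribosomal proteins had 0.136% (1 of 76 in the highest decile), translation factors 0.110% (4 of 51), aminoacyl-tRNA synthetases 0.120% (1 of 34), the core spliceosome 0.110% (1 of 47) and hnRNP proteins 0.0838% (0 of 19). Proteasome subunits had 0.0906% (0 of 37), vacuolar ATPase subunits 0.0877% (0 of 17) and ubiquitin-conjugating enzymes 0.108% (0 of 31). Antioxidant genes had 0.0731% (0 of 20), polyamine genes 0.0728% (0 of 9), cholesterol genes 0.135% (0 of 24) and solute carriers 0.108% (5 of 135).

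Lists of structural genes of the epithelium had medians below the 0.154% of all genes, the keratins only slightly, with 4 of 9 above it. Desmosome and adherens junction genes had a median of 0.0916% (0 of 14 in the highest decile), actin cytoskeleton genes 0.107% (0 of 28), S100 proteins 0.101% (0 of 12), laminin-332, hemidesmosome and integrin genes 0.102% (1 of 15), the urokinase system and metalloproteinases 0.126% (1 of 11) and keratins 0.149% (0 of 9). LAMB3, a chain of laminin-332, was at 0.86%, SERPINB2, an inhibitor of plasminogen activators, at 0.738% and the desmosomal cadherin DSG3 at 0.612%, while COL17A1 of the hemidesmosome was at 0.0105%. DNA replication genes had 0.0982% (1 of 31), mitosis genes 0.120% (0 of 29) and replacement histones 0.120% (1 of 7). B2M, the light chain of MHC class I, was one of the most abundant slow-labelled mRNAs, with a rate of 0.0502, 0.0472 and 0.0536% without 4sU and 0.0672, 0.06 and 0.0675% with it. Its labelled libraries lay above the unlabelled ones, but the difference did not pass the test (adjusted p = 0.087).

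Total reads fell with 4sU for 141 genes, or 1.6% of those tested, and rose for 0 genes, or 0.0% (adjusted p under 0.05 by the Benjamini-Hochberg method, from limma on log2(CPM + 1)). At an unadjusted p under 0.05, 590 genes (6.7%) were lower and 273 (3.1%) higher, and edgeR's quasi-likelihood test on the recovered reads gave 134 lower and 0 higher genes. DESeq2 gave 287 lower and 5 higher genes. The number depended on the replicates: it was 24 without replicate 2, 29 without replicate 3 and 374 lower and 4 higher without replicate 1. The change was negative in all 3 of these fits for each of the 141 genes, and 22 genes passed in all 3. The members were chosen by their level without 4sU, which favours falls, and with a choice by the mean over all 6 libraries 120 genes fell. Scaled on the ribosomal protein genes, the median change of all genes moved from 0.05 to -0.20 on the log2 scale, and 108 genes fell, so that falls are relative to the typical mRNA.

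The genes that fell were lower by a median of 1.35 on the log2 scale, so that 39.3% of the CPM were left, and 119 of 141 were below -1. In 141 of 141 the 3 libraries with 4sU lay below the 3 without, against 711 of all genes, or 8.07%. As the 141 were called from these same libraries, this follows largely from their selection and is no further support. DUSP1 had 231, 149 and 156 CPM without 4sU and 23.8, 16.3 and 24.4 CPM with it, a log2 change of -3.02 (standard error 0.21, adjusted p = 2.7e-04). CXCL2 had 63.6, 81.9 and 61.6 CPM without 4sU and 8.08, 7.54 and 8.46 CPM with it, a change of -2.98 (standard error 0.17, adjusted p = 1.7e-04). NFKBIA had 304, 260.2 and 258 CPM without 4sU and 55, 28.6 and 31.4 CPM with it, a change of -2.90 (standard error 0.23, adjusted p = 5.4e-04). In these genes each library with 4sU held less than each library without, and they passed in all 3 fits with a replicate left out. MYC had 101, 206 and 229.7 CPM without 4sU and 21.8, 22 and 21.7 CPM with it, and its change was -2.93 (standard error 0.30, adjusted p = 0.0017). Here the unlabelled libraries differed more, replicate 1 being the lowest, whereas the labelled libraries were alike. KLF6, the most abundant of the 15 genes with the largest falls, had 718, 490.2 and 473 CPM without 4sU and 121, 82.7 and 117 CPM with it, a change of -2.41 (standard error 0.20, adjusted p = 5.4e-04). DDIT4 had 85.1, 78.2 and 63.3 CPM without 4sU and 13.2, 10.5 and 9.11 CPM with it, a change of -2.72, and HES1 changed by -2.61. The plot of reads by library shows 6 of these falls beside genes that did not pass the test.

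Other large falls were those of the splicing kinase CLK1 (-2.58), DUSP6 (-2.25), PLK2 (-2.15) and EPC1 (-2.16), a subunit of the NuA4 acetyltransferase complex. JUN had 48.1, 57.6 and 45 CPM without 4sU and 30.2, 20.3 and 25.6 CPM with it, a log2 change of -1.004 (adjusted p = 0.031 by limma), with all labelled libraries below all unlabelled ones. With the replicate numbers as a block this call was lost (adjusted p = 0.054 by limma), and it passed without replicate 1 (0.0014) but not without replicate 2 (0.41) or replicate 3 (0.39). Long non-coding RNAs made up 18 of the 141, which was 13.4% of the 134 tested, against 1.6% over all genes. SND1-IT1 had the most negative change of all, -3.09 (standard error 0.23, adjusted p = 3.4e-04), with 11, 10.6 and 12.5 CPM without 4sU and 0.892, 0.125 and 0.498 CPM with it. Its labelled libraries held only 19, 3 and 10 reads, so its rate (3.9, 0 and 6.43% with 4sU) rested on very few reads and did not pass the test (adjusted p = 0.15). LINC01004 changed by -2.96, SPRY4-IT1 by -2.23, and MIR17HG, the host of the miR-17-92 cluster, by -2.41. MIR17HG also had the highest background-subtracted rate of all genes (12.4%), from 42, 10 and 18 reads with 4sU.

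Genes that lost total reads were mostly those labelled fast. Of the 141 genes, 131 were in the highest decile of the rate, 135 had a rate that was called higher, and their median background-subtracted rate was 2.47%. The share that fell was 0.0345% of 2899 genes with a rate under 0.1%, 0.106% of 4735 genes from 0.1 to 0.5%, 2.69% from 0.5 to 1%, 11.6% from 1 to 2%, 41.2% from 2 to 5% and 79.5% of the 39 genes over 5%. The median log2 change went from 0.14 in the lowest of these classes to -1.73 in the highest, as the plot of rate against change shows. Across all 8807 genes, Spearman's correlation of rate and change was -0.46, and it was -0.46 among genes with at least 20 CPM. Both measurements come from the same libraries, and the rate is a share taken over the reads of the gene. A loss of unlabelled reads alone would raise this share, so rate and change are not independent. How much of the relation comes from this was not tested. With the rate of 1 replicate set against the change in the other replicates, the correlation was -0.41, -0.30 and -0.35 for replicates 1, 2 and 3. These values across genes are descriptions.

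**Figure D2:**
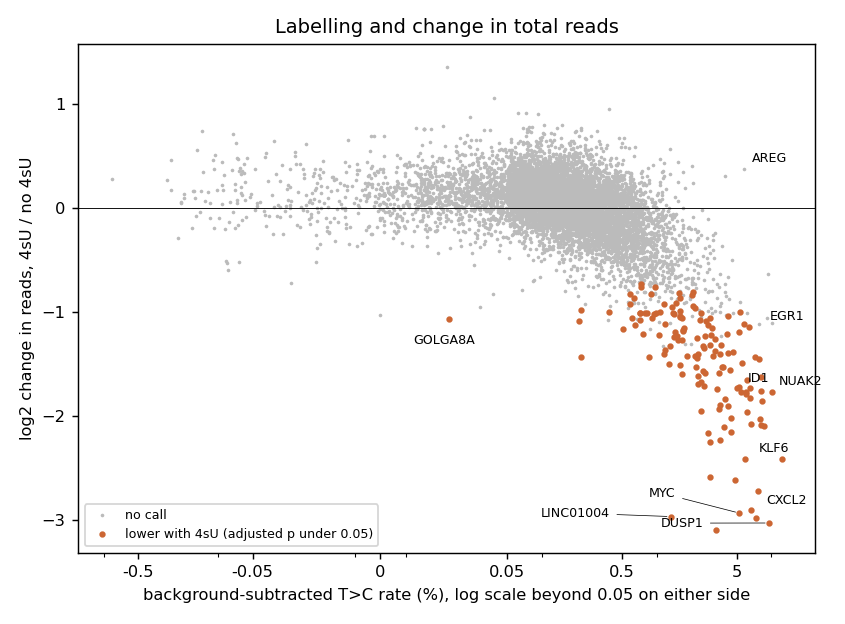
Background-subtracted T>C rate (percent, x axis, linear between -0.05 and 0.05 and logarithmic beyond) against the log2 change in reads with 4sU (y axis), 1 point per gene, with genes that fell in orange (1 of them is not drawn). The orange points lie mainly to the right of 0.5%, DUSP1, MYC and CXCL2 near -3, while AREG at 5.86% lies above 0 and GOLGA8A at 0.0272% is a slow-labelled gene that fell.

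By function, 52 of the 141 genes (36.9%) belonged to the lists of regulators, which hold 498 of all 8807 genes (5.65%), while 9 belonged to other lists and 80 to no list. Over all genes 1.6% fell, and the counts by list are given against this share. Immediate early genes had 9 of 17 members that fell, with a median change of -1.21 for the list against 0.05 for all genes. In CXC chemokines and interleukins 4 of 12 fell, in MAP kinase phosphatases and ERK feedback 4 of 16, in AP-1 factors 3 of 12, in TGF-beta and BMP feedback 3 of 11, in NF-kappaB factors 3 of 13, in YAP and TAZ targets 3 of 18, in small nucleolar RNA hosts 3 of 18 and in Krueppel-like factors 2 of 10. ZNF genes that fell numbered 15 of 143, and 62 of 143 had all labelled libraries below all unlabelled ones (8.07% over all genes), with a median change of -0.35. Of 24 p53 targets only PLK2 passed. The cytokines LIF, which maintains stem cells through STAT3, and IL6 changed by -1.74 and -1.39, and NFKBIZ and TNFAIP3 by -2.10 and -1.90. In the lists of the chaperonin, proteasome, glycolysis, tricarboxylic acid cycle, respiratory chain, ribosomal proteins, keratins, desmosome, mitosis and DNA replication, 0 genes fell and 0 rose, beside 1.6% and 0.0% over all genes, and most of these lists are too short for a call to be expected at that share. Cytosolic ribosomal protein genes, the basis of the other scaling, had a median change of 0.27. They also set replicate 1 apart, with scales from these genes of 1.27 without and 1.40 with 4sU, against 0.740 to 1.01 in the other libraries.

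Strong labelling was not always accompanied by a fall. Of 139 genes with at least 20 CPM and a rate over 1%, 53 fell, 44 had a change of -0.5 or more, and 9 of these had a change above 0. Of 289 genes under 20 CPM and with a rate over 1%, 62 fell. AREG, the EGF receptor ligand amphiregulin, had a rate of 0.208, 0.066 and 0.0618% without 4sU and 6.64, 5.74 and 5.52% with it. Its level was 5.04, 12.4 and 14.7 CPM without 4sU and 6.34, 19.7 and 18.6 CPM with it. Rate and level of AREG combine 4 counted intervals, and how the authors' counting divides reads between them is uncertain. Replicate 1 had the lowest level in both groups, the groups overlapped, and the change was 0.37 (standard error 0.46, adjusted p = 0.84). HBEGF, a related ligand, had 111, 80.6 and 74.8 CPM without 4sU and 54.9, 54 and 60.0 CPM with it, and with a rate of 2.28% its change of -0.67 did not pass (adjusted p = 0.11). EGR1 had 66.3, 47.4 and 48.1 CPM without 4sU and 36.1, 19.8 and 21.1 CPM with it. Its libraries did not overlap, and its change of -1.11 (standard error 0.23, adjusted p = 0.054) stayed just outside the threshold. The same held for ZFP36 with -1.05 (standard error 0.22, adjusted p = 0.058) and KLF10 with -1.22 (standard error 0.26, adjusted p = 0.058), so that a lack of a call does not show that these mRNAs were unaltered. DUSP2, with a rate of 9.47% close to that of DUSP1, had 9.54, 6.79 and 6.84 CPM without 4sU and 7.66, 3.17 and 4.08 CPM with it and a change of -0.64 (standard error 0.27, adjusted p = 0.47), and its groups overlapped, whereas those of DUSP1 were far apart. The difference between both genes was not tested. HSPA8, a constitutive heat shock protein, was at 0.696%, with a change of -0.49 that did not pass the test.

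The reverse, a fall with little labelling, was rare. Of the genes with a rate under 0.5%, 6 fell. GOLGA8A, a golgin gene with near-identical copies that share reads, was the one with the lowest rate and is named after its values were seen. Its background-subtracted rate was 0.0272%, with 61.3, 50.7 and 38.6 CPM without 4sU and 22.4, 26 and 22.8 CPM with it, a change of -1.06 (standard error 0.18, adjusted p = 0.018). CDKN1B, the inhibitor of cyclin-dependent kinases p27, lay in the fast range at 2.7% and changed by -1.09. EIF4A2, a translation initiation factor, changed by -1.05 with a rate of 0.914%. Of 51 translation factors it was the 1 that fell, which is near the share of 1.6% over all genes.

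Gene structure and 3′ UTR sequence differed along the order of rates. A 3′ UTR of the length of the counted interval was found in GENCODE for 7428 of 8807 genes (84.3%). The nonamer TTATTTATT was searched on the strand of the gene with overlapping matches counted, and was present in 656 of 7428 3′ UTRs (8.83%). In the highest decile it was present in 102 of 717 (14.2%), and in the lowest decile in 5.97%. The 656 genes with it had a median rate of 0.204% against 0.149% for the 6772 without it, but genes with 2 or more had a median of only 0.149%. Of the 656, 15.6% were in the highest decile, against 9.08% of those without it. Among intervals of 3000 bases or more the medians were 0.183% with and 0.184% without it, whereas in each of the 3 shorter classes the median was higher with it, for example 0.213 against 0.155% from 500 to under 1500 bases. The pentamer ATTTA, which the nonamer contains, was in 79.6% of the matched 3′ UTRs of the highest decile and 74.7% of all. Per kb it was no more frequent there, at 2.36 against 2.39 over all matched 3′ UTRs. The intervals of the highest decile were longer (median 1491 against 1250.0 bases over all genes). Whether the nonamers printed above act on the mRNAs was not tested. For the 141 genes that fell in total reads only 76.6% had a matched 3′ UTR, so their share with the nonamer is not given.

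Among the 7428 genes with a matched 3′ UTR, those with few exons had higher rates. Exons and gene span are those of the transcript with this 3′ UTR. Non-coding transcripts have none and are left out. The 89 genes with a single exon had a median rate of 0.531%, and 46.1% were in the highest decile. With 2 to 3 exons the median was 0.307% (28.4% in the highest decile), with 4 to 7 exons 0.158%, with 8 to 15 exons 0.135% and with 16 or more 0.141% (3.72%). In the highest decile the median was 5 exons over a gene span of 15.3 kb, against 9 exons and 29.98 kb over all matched genes. The share of single-exon genes that fell in total reads was 7.87%, and 0.458% for genes with 16 or more exons, against 1.6% over all genes. The highest decile also had lower levels, with a median of 13.2 CPM without 4sU against 24.1 CPM over all genes, so its rates rest on fewer reads.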

How the data were processed

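RNA was alkylated with iodoacetamide, and 3′ end libraries were made with the QuantSeq FWD kit. Reads were processed by the authors with the SLAM-Seq workflow of nf-core in Nextflow, and hg19 is the build in their processing notes. Per the file headers, the deposited table gives RefSeq transcripts with the length of the 3′ interval, the conversion rate, a fraction from 0 to 1 without background subtraction, and a CPM column. This CPM column is a signal scaled to the library that the authors deposited, from which whole reads were recovered for 100% of the values (tolerance 0.01 reads). The library totals follow from the recovered reads. How many T positions lie behind a rate is not known, and no counting interval is given for it.

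RefSeq identifiers were matched to symbols with a RefSeq table of another assembly, used for names only (97.7% of 56868 rows). Intervals repeated with equal length and values were used once. For the 20.2% of genes with several intervals, rates were averaged with their reads as weights and reads were summed, since an unweighted mean is diluted by intervals without reads. Genes with a mean of at least 1 CPM over 6 libraries (11144) were fitted, and calls were counted over 8807. In R 4.3.3, limma 3.58.1 was used for the rates, as log2(rate + 0.0005), with robust variances trended on reads, and for the reads, as log2(CPM + 1) with TMM library sizes, in both cases without a replicate term. Fold changes on this scale understate those of low genes. edgeR 4.0.16 and DESeq2 1.42.0 on recovered reads were alternatives, because the deposited values are no counts.

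On simulated data, the rate test found 65.9% of 164 genes changed 9-fold, with 17 false among 125 calls, more than the nominal share, and 88.4% of 95 genes with at least 20 CPM, with 7 false among 91. The test of reads found 97.6% of 164 genes changed 3-fold, with 11 false among 171 calls. For the rates, the simulation changed few genes and assumed a number of T positions per read. In the data 63.3% of genes were called higher in rate, with a median log2 change of 1.20 over all genes. The shares found for the rate test may therefore not hold for the data.

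Samples with the same replicate number deviated together in total reads (correlations of deviations over 8807 genes 0.41, 0.34 and 0.43), so the numbers pair the libraries there, as read from the data. In the rates they did not (1e-04, -0.012 and -0.013).

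The genes in the text are the 15 with the highest rate (at least 20 CPM, called), the 10 with the lowest (at least 200 CPM), the 15 largest falls, up to 2 extremes of each list, and JUN. Other genes are marked as named after their values were seen, or belong to figures and marker lists. The members, lists and tests were chosen with earlier results of these data known. The IAA columns were identical in all 56868 rows and entered no comparison. The 3′ UTRs come from GENCODE for GRCh37. Tables were handled in pandas 2.3.3 and numpy 2.4.6 under Python 3.11.15, and scipy 1.17.1 gave the permutation test. The design had assumed CPM, and the same limma test served for the signal.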

Additional observations from a re-analysis of the deposited data

Results flagged for a closer look

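The IAA columns, which the comparison does not use and which hold 1 set of values 3 times, also carried a labelling signal. Their median conversion rate was 0.227% over the interval with most reads of the 8807 genes, above the highest median of 0.0579% in a library without 4sU. Groups of 3 libraries are too small for a check of single libraries that lie apart.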

How the results depend on the processing

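No called result changed direction under the alternatives. Genes with a changed rate numbered 5582, and leaving out the libraries of 1 replicate gave 3479 to 3936. The other settings, which include the pseudocounts, the variance trend, the filters, the interval with most reads, a common labelled median and an unweighted mean of intervals (chosen after seeing the data), gave between 3862 (of 4976 genes with at least 20 CPM) and 5729. With the replicate block it was 5438. Genes with changed total reads numbered 141 and were 292 with DESeq2, where the 5 higher genes were ERBB2, GCDH, PFDN5, RPL39 and S100A9, and 50 of 4976 when only genes with at least 20 CPM were fitted, where 68 of the 141 genes had that level without 4sU. With a replicate left out they ranged from 24 to 378, where the 4 higher genes without replicate 1 were EIF5AL1, RPL11, RPL39 and S100A9. These genes were named after their values were seen. With the replicate block, which pairs the libraries in total reads, 157 genes fell and 130 were among the 141. The other settings gave from 108 to 155 genes, all lower. The median background-subtracted rate was 0.154% and without background subtraction 0.223%, and with a replicate left out it was 0.130 to 0.163%. The difference of the library medians was 0.153% and ranged from 0.132 to 0.165% with a replicate left out. The replicate block ended the call in total reads of JUN and KMT2E (adjusted p = 0.054 and 0.061 by limma) among the genes named by the rule. Medians of the lists moved by more than the spread between replicates in 27 comparisons for the rate and 30 for total reads, and did not in 173 and 170. Of single genes named, 166 calls in rate and 63 in reads were lost and 39 and 38 gained over all settings. In 3070 and 3434 comparisons the outcome stayed the same, and these include genes called under neither setting. They are therefore no count of calls that held. The depth limits the rates of scarce mRNAs most. In the unlabelled library with most zeros, 10.7% of the genes were at a rate of 0. On simulated data with other settings, the rate test found 65.9% of changed genes at 5 CPM or more and 88.4% at 20 CPM or more.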

Other observations

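Of the 27 genes with antisense symbols ending in AS and a number, 10 were in the highest decile of the rate. Their median rate was 0.387%, and 3 (11.1%) fell in total reads, against 1.6% over all genes. Whether the counting used strand is not given in the sources used here. It is therefore not known whether reads of an antisense gene and its partner were kept apart. The 11 rows annotated as microRNA genes had a median rate of 0.0172%, although 3′ end libraries read the host transcript there rather than the mature microRNA. Of these rows 0 fell or rose, beside 1.6% and 0.0% over all genes, and they are too few for a call to be expected. The 52 transcribed pseudogenes had a median rate of 0.151% with 7 in the highest decile, close to the 0.153% of protein-coding genes. Of these pseudogenes 3 fell (5.77%, against 1.6% over all genes). The replicates shared 537, 564 and 542 of 880 genes in the highest decile of the rate, for replicates 1 and 2, 1 and 3, and 2 and 3.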
